A study of Rattus norvegicus with 12 samples.

Results

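The genes that store vitamin A, turn it into retinoic acid and carry the retinoic acid signal were followed through 8 transcripts: Lrat, Rdh10, Aldh1a2, Crabp2, Rara, Rarb, Rarg and Cyp26b1. They are 8 of the 17419 gene symbols in the deposited count table, and all 8 passed the filter on low counts that left 12535 genes for testing. The members were taken by symbol and were chosen on results of these libraries, because Lrat differed most of them between the Btg1 and the Btg2 knockdown. That contrast is therefore given as a description for all 8 genes. Lrat is tested only in the double knockdown against scramble, where the selecting contrast was not used. The spread in that test came from all 12 libraries, those of the selecting contrast included, so the test is not fully separate from the choice.

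The cultures held ventricular heart cells of newborn (P0) wildtype Sprague-Dawley rats, enriched for cardiomyocytes by removing fibroblasts. They were transfected with small interfering RNA (siRNA) against Btg1, Btg2 or both, related genes whose proteins restrain proliferation and bind a complex that shortens the tails of messenger RNA. RNA was taken after 48 h, amplified and sequenced. Control cultures received 20 nM siScramble. Btg1 knockdown cultures received 10 nM siBtg1 with 10 nM siScramble, and Btg2 knockdown cultures received 10 nM siBtg2 with 10 nM siScramble. Double knockdown cultures received 10 nM siBtg1 with 10 nM siBtg2 and were given no siScramble, so the total dose was the same in all groups and the scramble dose was not. Each of the 4 groups had 3 libraries. Separate cultures or animals behind these 3 are not named in the labels, and the p-values given here then rest on a spread that may be technical.

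Retinol, the transport form of vitamin A, is converted by lecithin retinol acyltransferase (Lrat) to retinyl esters, the storage form. Retinol is otherwise oxidised reversibly to retinal by enzymes such as retinol dehydrogenase 10 (Rdh10), and retinal is oxidised irreversibly to retinoic acid by retinaldehyde dehydrogenases such as Aldh1a2. Retinoic acid reaches the nucleus with the binding protein Crabp2, acts through the receptors Rara, Rarb and Rarg paired with a retinoid X receptor, and is cleared by the cytochrome P450 enzymes of the Cyp26 family. In the developing heart this signal is known for its part in chamber patterning and in growth of the ventricular wall.

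Promoter windows of 300 bases, from 250 before to 50 after an annotated start, were read from the RefSeq table of rat assembly GRCr8, a later build than that of the counts. The table matched 7 of the 8 genes with 8 windows, 2 of them for Rarg. Stretches from 3 windows are shown because Lrat and Crabp2 had the lowest percentages of scramble in the Btg1 knockdown, and because Rarb carried the only retinoic acid receptor type repeat found among the members. The stretches of Lrat, at chr2:170571213-170571362 on the minus strand, and of Crabp2, at chr2:175714712-175714861 on the plus strand, are the 150 bases before the annotated start, with the letters TATAA in capitals. The stretch of Rarb, at chr15:11336412-11336441 on the plus strand, lies just after the annotated start, with the 2 copies of GTTCA in capitals.
Lrat: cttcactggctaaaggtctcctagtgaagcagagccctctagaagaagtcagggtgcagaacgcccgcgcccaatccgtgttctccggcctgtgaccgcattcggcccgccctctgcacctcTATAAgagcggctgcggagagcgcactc
Crabp2: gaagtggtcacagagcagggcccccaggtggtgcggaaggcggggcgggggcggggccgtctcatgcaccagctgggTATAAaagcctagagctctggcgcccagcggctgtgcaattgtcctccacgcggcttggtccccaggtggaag
Rarb: gaaggGTTCAccgaaaGTTCActcgcatat

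The capitals in Lrat span bases -28 to -24 from the start, and those in Crabp2 span bases -73 to -69. TATAA on either strand was present in 26.2% of all 33469 windows, and in these 2 of the member windows. On the gene's own strand, with its first base 20 to 40 bases before the start, it was present in 2.48% of windows, Lrat being the only member among them. Retinoic acid receptors bind direct repeats of a short core, classically with 5 bases between the copies of the full motif. A search on both strands for GGTCA or GTTCA followed in the same direction by a further GGTCA or GTTCA, spaced in that way, matched 201 windows, or 0.601%. The window of Rarb was the only member window to match, at bases 26 to 41 after the start, with GTTCA in both copies, a form present in 0.418% of windows. The same cores with spacers of 2 bases or 1 base, the other known arrangements, matched 0.326% and 0.379% of windows and none of the member windows. Such a match describes the letters only.

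Total counts per library ran from 24434925 to 46206581, lowest in Btg2 knockdown replicate 2, so that 1 count was worth 0.0213 to 0.0422 CPM (counts scaled to the library total). Btg1 stood at 23.4% of its scramble mean in the Btg1 knockdown and at 18.3% with both siRNAs. Btg2 stood at 61.5% in the Btg2 knockdown, 49.6% in the double knockdown and 127% in the Btg1 knockdown, so its depletion was partial. Cardiomyocyte markers such as Myh6 were abundant, but so was the fibroblast marker Col1a1, at 4447 to 6296 CPM. The summed level of 11 detected fibroblast markers was 20813 to 21586 CPM in scramble and 21251 to 22665 in the Btg2 knockdown. It was 16894 to 19856 CPM in the Btg1 knockdown and 16944 to 18744 with both siRNAs. Of these 11 markers, 8 fell and none rose in the Btg1 knockdown, 9 fell and none rose in the double knockdown, and 6 fell and 1 rose in the Btg2 knockdown. Of all tested genes, 17.8% were called lower in the Btg1, 19.5% in the double and 13.6% in the Btg2 knockdown. Calls in either direction made up 36.5%, 38.9% and 30.0% in that order. These shares stand beside the marker counts that follow too, some of which are near them or below. The summed epicardial list ran from 187 to 194 CPM in scramble and 200 to 204 with siBtg1. It ran from 232 to 253 CPM with siBtg2, and 239 to 259 with both siRNAs. Krt19 alone averaged 95.5, 94.1, 138 and 144 CPM in that order. Of 9 tested markers on that list, 2 rose and none fell with siBtg1. With siBtg2, and also with both siRNAs, 3 rose and 1 fell. The sum of 11 cardiomyocyte markers was 30902 to 31658 CPM in scramble and 30612 to 34707 with siBtg1. It was 33965 to 37331 CPM with siBtg2, and 32977 to 33237 with both siRNAs. Of these 11, 3 rose and 4 fell with siBtg1, and 2 rose and 3 fell with both siRNAs. With siBtg2, 4 rose and none fell. The sum of 10 smooth muscle and pericyte markers was 2481 to 2619, 2587 to 3194, 2824 to 3170 and 2456 to 2613 CPM in the same order. Of these 10, 2 rose and 2 fell with siBtg1, and 3 rose and 3 fell with both siRNAs. With siBtg2, 2 rose and none fell. Summed endothelial markers were lower than scramble in every knockdown. They were at 127 to 135 CPM in scramble, 109 to 122 with siBtg1, and 110 to 118 with siBtg2. With both siRNAs they were at 91.1 to 95.6 CPM, where 8 of 10 fell and 1 rose. With siBtg1 only 2 of the 10 fell and 1 rose, and with siBtg2 4 fell and none rose. Summed macrophage markers were also lower in each knockdown, at 34.3 to 39.2, 26.4 to 31.1, 24.6 to 25.5 and 26.6 to 28.1 CPM. Of 9 tested macrophage markers, 2 fell with siBtg1, 5 with siBtg2 and 2 with both siRNAs, and none rose. The Schwann cell and neuronal sum was 442 to 487 CPM in scramble and 360 to 368 with siBtg1. It was 526 to 544 CPM with siBtg2 and 373 to 384 with both siRNAs. Ncam1 made up most of that sum, averaging 425, 335, 502 and 349 CPM in the same order. Of 5 tested markers on this list, 3 fell and none rose with siBtg1 and with both siRNAs. With siBtg2, 1 rose and none fell. Some listed markers had no row in the count table, and none of those with a row was at 0 in all libraries. The part of these shifts in the results that follow was not tested. In mixed cultures fewer cells of a type and less RNA per cell cannot be told apart.

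Per transcript length, the receptor Rara was the most abundant member in scramble cultures, at 65.9 to 70.4 TPM (counts scaled to gene length and library total, as the authors deposited them) with a mean of 68.2 ± 2.25 (SD, n = 3). Aldh1a2, Rarb and Rarg followed at means of 13.8, 13.7 and 13.5 TPM, and neighbours in that order overlapped between libraries. Rdh10 averaged 10.7 TPM, Crabp2 4.20 and Cyp26b1 2.17. Lrat was the lowest, at 1.97 ± 0.0577 TPM, and its highest library equalled the lowest of Cyp26b1. The other neighbours in this order, Rara and Aldh1a2, Rarg and Rdh10, Rdh10 and Crabp2, and Crabp2 and Cyp26b1, did not overlap. The plot of levels per transcript length shows the storage and clearance enzymes at the bottom of the range and 1 receptor well above the rest.

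**Figure D1:**
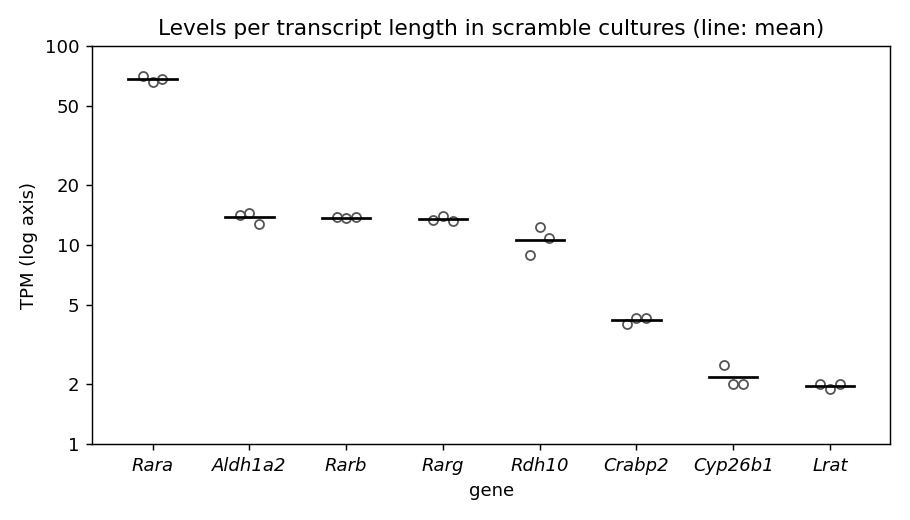
Deposited TPM of the 8 genes in the 3 scramble libraries, on a log axis; open circles are libraries and lines are means. Rara sits near 68 TPM, whereas Lrat and Cyp26b1 sit near 2 TPM.

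In the double knockdown Crabp2, Rarb and Rarg fell and Rara rose. Thus 4 of the 8 genes passed edgeR's quasi-likelihood test at a Benjamini-Hochberg adjusted p of 0.05, against 38.9% of all 12535 tested genes. Of these, 3 were lower, against 19.5% of all genes, and 1 was higher, against 19.4%. In 5 of 8 genes the double knockdown and scramble libraries did not overlap, against 46.8% of all genes. The median log2 change of the members was -0.30, beside -0.01 for all tested genes.

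In the Btg1 knockdown Crabp2, Rarb and Rarg fell. These are 3 of 7 tested members, against 36.5% of all genes called and 17.8% called lower. All 7 had a fitted change below 0, and 5 of 7 did not overlap scramble, against 50.1% of all genes. Their median change was -0.29, beside -0.00 for all genes. In the Btg2 knockdown Rarb alone fell, which is 1 of 7 tested members, against 30.0% of all genes called and 13.6% called lower. There 2 of these 7 did not overlap scramble, against 45.7% of all genes, and their median change was -0.04, beside -0.00 for all genes. The 3 comparisons share the same scramble libraries, so they are not independent of each other. The plot of changes from scramble sets them side by side.

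**Figure D2:**
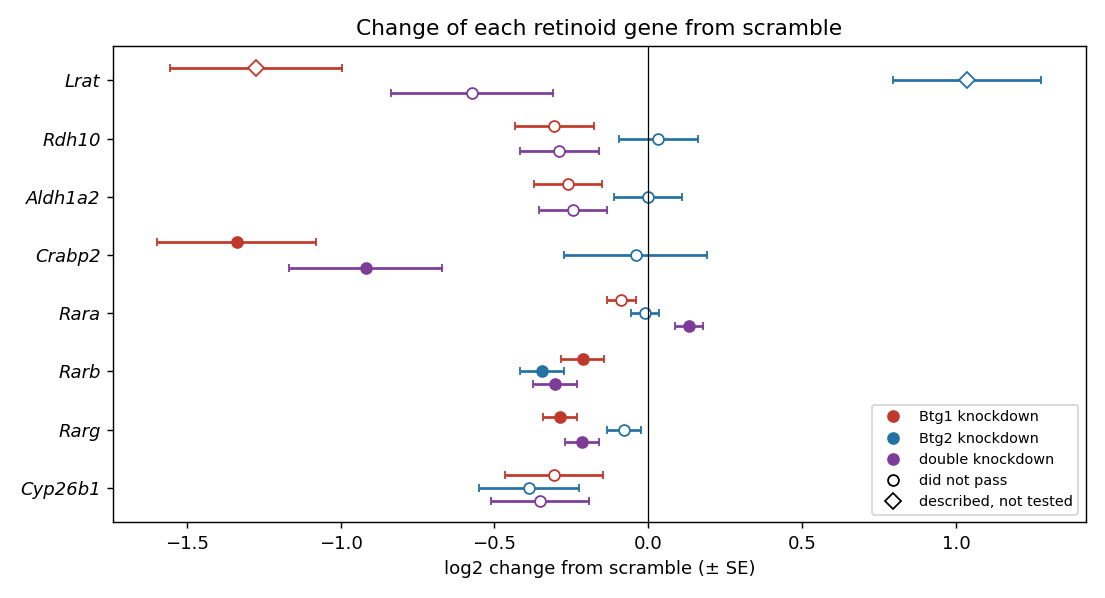
Log2 change from scramble with its SE for each gene in the Btg1, Btg2 and double knockdowns; filled circles passed the edgeR test, open circles did not, and diamonds were not tested. Crabp2 sits at -1.34 in the Btg1 knockdown and -0.92 with both siRNAs, and Rarb is left of 0 in all 3.

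Lrat, which makes the stored retinyl esters, had the widest spread among the groups, as the choice of members implies. Its level was 5.36, 5.08 and 5.49 CPM in the 3 scramble libraries, with a mean of 5.31 ± 0.212 (SD, n = 3). It was 2.59, 2.71 and 1.16 CPM in the Btg1 knockdown (2.15 ± 0.862) and 10.5, 13.1 and 9.35 CPM in the Btg2 knockdown (11.0 ± 1.90). All Btg1 knockdown libraries lay below all scramble libraries and all Btg2 knockdown libraries above them, at 40.6% and 207% of the scramble mean. The log2 change was -1.27 ± 0.28 (SE) in the Btg1 knockdown and 1.04 ± 0.24 in the Btg2 knockdown, both given without a test. Between the single knockdowns it was -2.31 ± 0.27, which ranked 10 by size among 12535 genes. Behind these values were 40 to 408 counts per library, fewest in Btg1 knockdown replicate 3.

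With both siRNAs present, Lrat stood at 5.06, 3.08 and 2.60 CPM, a mean of 3.58 ± 1.30 or 67.4% of scramble. Replicate 1 of the double knockdown lay next to the lowest scramble library, and the other two lay near the Btg1 knockdown. The groups did not overlap, but the change of -0.57 ± 0.26 (95% interval -1.14 to -0.0049) did not pass edgeR's test (unadjusted p = 0.048, adjusted p = 0.104). Without replicate 1 of the double knockdown the change was -0.90 with an adjusted p of 0.0044. Without replicate 3 of that group it was -0.39 with an adjusted p of 0.29. With only the 2 groups fitted the change passed at -0.57 (adjusted p = 0.031). With the replicate number as a block it passed at -0.60 (adjusted p = 0.037), although the numbers were not found to pair the libraries. Against the Btg1 knockdown the double knockdown differed by 0.70 ± 0.29, with overlapping libraries, and against the Btg2 knockdown by -1.61 ± 0.25, with none. The first of these was 0.37 without replicate 1 of the double knockdown and 0.43 without replicate 3 of the Btg1 knockdown. If the effects of the siRNAs added on the log2 scale, the departure from their sum was -0.33 ± 0.38 for Lrat, with a 95% interval of -1.16 to 0.49. That departure was also given without a test, and leaving out single libraries moved it between -0.66, without double knockdown replicate 1, and -0.15, without double knockdown replicate 3. The summed Schwann cell and neuronal markers, mostly Ncam1, had the same order of group means as Lrat, and their part in these values was not tested. The plot of CPM by group shows the single knockdowns on opposite sides of scramble.

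**Figure D3:**
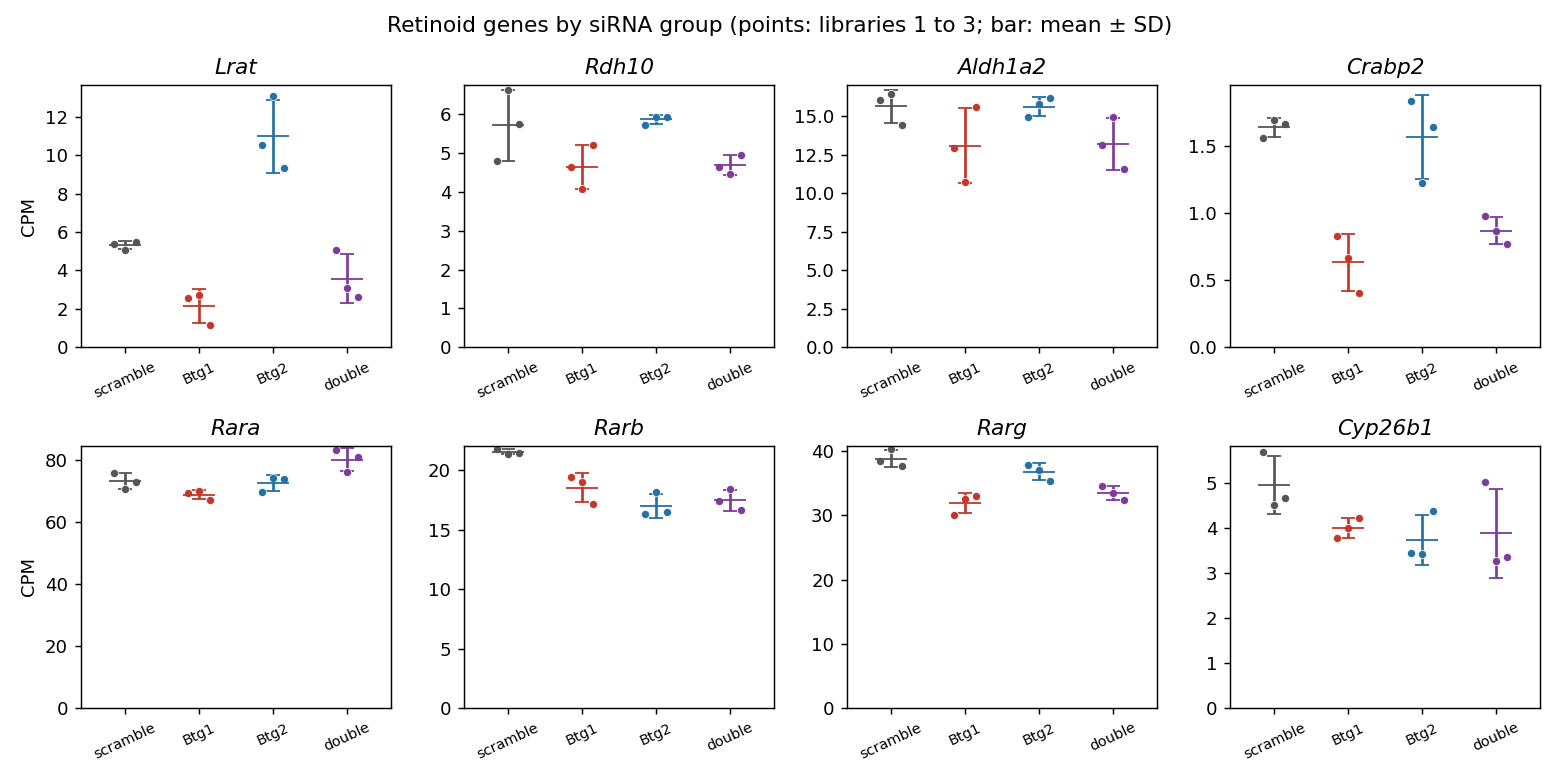
TMM-scaled CPM of the 8 genes in each library of the scramble, Btg1, Btg2 and double knockdown groups; points are libraries 1 to 3, bars the mean ± SD, and every axis starts at 0. Lrat spans 1.16 to 13.1 CPM with the Btg1 and Btg2 knockdowns on opposite sides of scramble.

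Rdh10 and Aldh1a2, the members that oxidise retinol and retinal, did not pass the test in any comparison made. Rdh10 was 4.79, 6.62 and 5.74 CPM in scramble, 4.63, 4.09 and 5.22 with siBtg1, 5.74, 5.94 and 5.93 with siBtg2, and 4.65, 4.47 and 4.96 with both siRNAs. Scramble replicate 1 lay within the range of the Btg1 and double knockdowns, so those groups overlapped. The log2 difference from scramble was -0.31 ± 0.13 in the Btg1 knockdown (edgeR adjusted p = 0.067), 0.03 ± 0.13 in the Btg2 knockdown (adjusted p = 0.88), and -0.29 ± 0.13 with both siRNAs (adjusted p = 0.081). Without scramble replicate 1, Rdh10 passed in the Btg1 knockdown at -0.42 (adjusted p = 0.021) and in the double knockdown at -0.40 (adjusted p = 0.024). Without Btg1 knockdown replicate 3 it also passed there, at -0.39 (adjusted p = 0.038). Leaving out single libraries moved Rdh10 between -0.42 and -0.19 in the Btg1 knockdown, and between -0.40 and -0.17 in the double knockdown. Over all alternatives its adjusted p ran from 0.021 to 0.35 and from 0.024 to 0.39 in these groups.

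Aldh1a2, which makes retinoic acid, was 16.1, 16.4 and 14.4 CPM in scramble and 14.9, 15.8 and 16.2 CPM in the Btg2 knockdown. It was 12.9, 10.7 and 15.6 CPM in the Btg1 knockdown and 13.1, 14.9 and 11.6 CPM with both siRNAs, where most libraries were lower but each group overlapped scramble. The differences were -0.26 ± 0.11 in the Btg1 knockdown (edgeR adjusted p = 0.069), -0.0018 ± 0.11 in the Btg2 knockdown (adjusted p = 0.99), and -0.24 ± 0.11 with both siRNAs (adjusted p = 0.085). For the Btg2 knockdown the 95% interval was -0.23 to 0.23. Without replicate 3 of the Btg1 knockdown Aldh1a2 passed there at -0.40 (adjusted p = 0.0064), and without replicate 2 of the double knockdown it passed there at -0.34 (adjusted p = 0.029). The summed fibroblast and Schwann cell and neuronal markers were lower in the same 2 groups, as given above, and their part in this was not tested.

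Crabp2, the protein that delivers retinoic acid to its receptors, fell in the Btg1 and double knockdowns. Its level was 1.56, 1.69 and 1.66 CPM in scramble (1.64 ± 0.0709, SD, n = 3) and 0.829, 0.664 and 0.406 CPM in the Btg1 knockdown (0.633 ± 0.213). It was 1.84, 1.22 and 1.64 CPM in the Btg2 knockdown (1.57 ± 0.313), and 0.973, 0.862 and 0.769 CPM with both siRNAs (0.868 ± 0.102). All libraries of the Btg1 and double knockdowns lay below all others, at 38.6% and 53.0% of the scramble mean, while the Btg2 knockdown spread around scramble. The log2 change was -1.34 ± 0.26 in the Btg1 knockdown (edgeR adjusted p = 2.5e-04) and -0.92 ± 0.25 with both siRNAs (adjusted p = 0.0050). It was -0.04 ± 0.23 in the Btg2 knockdown (adjusted p = 0.92). The double knockdown differed from the Btg2 knockdown by -0.88 ± 0.25 (adjusted p = 0.0092), a call lost without Btg2 knockdown replicate 1 (adjusted p = 0.057). Against the Btg1 knockdown the difference was 0.42 ± 0.28 (adjusted p = 0.30), with a 95% interval of -0.16 to 1.00. The counts behind Crabp2 were few, 14 to 71 per library.

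Among the receptors, Rarb fell in each knockdown, Rarg fell in the Btg1 and double knockdowns, and Rara rose in the double knockdown, all by small amounts. Rarb, which retinoic acid is known to induce through a repeat of the kind shown above, was 21.8, 21.4 and 21.4 CPM in scramble and 19.5, 19.0 and 17.1 CPM in the Btg1 knockdown. It was 16.3, 18.2 and 16.5 CPM in the Btg2 knockdown, and 17.4, 18.4 and 16.6 CPM with both siRNAs. Every knockdown library lay below every scramble library, and the 3 knockdown groups overlapped each other, with means of 86.1%, 78.9% and 81.1% of scramble. The change was -0.21 ± 0.07 in the Btg1 knockdown (edgeR adjusted p = 0.020), -0.35 ± 0.07 in the Btg2 knockdown (adjusted p = 7.5e-04), and -0.30 ± 0.07 with both siRNAs (adjusted p = 0.0015). The call in the Btg1 knockdown was lost without Btg1 knockdown replicate 3 (adjusted p = 0.11) and without scramble replicate 1 (adjusted p = 0.060). The double knockdown differed from the Btg1 knockdown by -0.09 ± 0.07 (95% interval -0.24 to 0.06) and from the Btg2 knockdown by 0.04 ± 0.07 (-0.11 to 0.19), neither of which passed. The departure of Rarb from added effects was 0.26 ± 0.10 (adjusted p = 0.090). Like Rarb, the summed endothelial and macrophage markers were below scramble without overlap in every knockdown, and the fibroblast sum was so in the Btg1 and double knockdowns. The part of these in the changes of Rarb was not tested.

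Rarg was 38.5, 40.3 and 37.7 CPM in scramble, 30.1, 32.6 and 33.0 with siBtg1, 37.9, 37.1 and 35.4 with siBtg2, and 34.6, 33.4 and 32.4 with both siRNAs. The Btg1 and double knockdown libraries lay below all scramble libraries, at 82.1% and 86.2% of the scramble mean, and the Btg2 knockdown overlapped scramble. The change was -0.29 ± 0.05 in the Btg1 knockdown (edgeR adjusted p = 2.3e-04), -0.22 ± 0.05 in the double knockdown (adjusted p = 0.0031) and -0.08 ± 0.05 in the Btg2 knockdown (adjusted p = 0.29). The difference of -0.14 ± 0.06 between the double and the Btg2 knockdown did not pass (adjusted p = 0.064). As for Crabp2, the groups in which Rarg fell were those with lower summed fibroblast and Schwann cell and neuronal markers, and the part of these in the change was not tested.

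Rara was 76.0, 70.9 and 72.9 CPM in scramble, 69.4, 70.1 and 67.2 with siBtg1, 69.8, 74.3 and 74.0 with siBtg2, and 83.5, 76.3 and 81.0 with both siRNAs. The double knockdown lay above the libraries of every other group, at 110% of the scramble mean, its replicate 2 just above scramble replicate 1. The change from scramble was 0.13 ± 0.05 (edgeR adjusted p = 0.027), and the call was lost without double knockdown replicate 1 (adjusted p = 0.13), scramble replicate 2 (adjusted p = 0.13) or scramble replicate 3 (adjusted p = 0.070). In the single knockdowns the differences were -0.09 ± 0.05 for Btg1 (adjusted p = 0.15) and -0.01 ± 0.05 for Btg2 (adjusted p = 0.89). Rara was higher in the double than in the Btg1 knockdown by 0.22 ± 0.05 (adjusted p = 0.0013) and than in the Btg2 knockdown by 0.14 ± 0.05 (adjusted p = 0.021). The last of these was lost without Btg2 knockdown replicate 1 (adjusted p = 0.11), without double knockdown replicate 1 (adjusted p = 0.095) and with only the 2 groups fitted (adjusted p = 0.0501).

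Rara was thereby the member called in the double knockdown against the Btg1 knockdown, 1 of 7 against 22.3% of all genes. Rara and Crabp2 were the 2 of 7 called against the Btg2 knockdown, beside 32.2% of all genes. Rara was also the only 1 of 7 members whose departure from added effects passed, at 0.23 ± 0.07 (edgeR adjusted p = 0.020), beside 15.1% of all genes. Annotated long noncoding RNA loci overlap Rara, Rarg and Lrat in GRCr8, none of them a row of the count table, and the strand setting of the counting is not given in the sources used here. Reads of such loci could therefore be among the counts of these 3 genes.

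Cyp26b1, which clears retinoic acid, was 5.69, 4.52 and 4.66 CPM in scramble, 3.78, 4.01 and 4.24 with siBtg1, 3.44, 3.41 and 4.39 with siBtg2, and 5.03, 3.27 and 3.35 with both siRNAs. All libraries of both single knockdowns lay below scramble, whereas replicate 1 of the double knockdown lay within the scramble range. The differences were -0.31 ± 0.16 for Btg1 (edgeR adjusted p = 0.14), -0.39 ± 0.16 for Btg2 (adjusted p = 0.076) and -0.35 ± 0.16 for both (adjusted p = 0.085), none of which passed. Without replicate 1 of the double knockdown the last was -0.58 (adjusted p = 0.0058), and without Btg2 knockdown replicate 3 the Btg2 value was -0.53 (adjusted p = 0.044). The Btg2 value also passed with only the 2 groups fitted (adjusted p = 0.043) and with library size as the only scaling (adjusted p = 0.0498). Leaving out other libraries brought the Btg2 value to as little as -0.28 and the double knockdown value to -0.24. The adjusted p reached 0.27 and 0.32 over all alternatives. Behind the values of Cyp26b1 were 81 to 190 counts per library.

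Between the single knockdowns, 4 of the 8 members did not overlap, beside 51.8% of all genes, and nothing is read from this count because the contrast chose the members. The log2 difference of the Btg1 from the Btg2 knockdown was -1.30 for Crabp2, -0.34 for Rdh10 and -0.21 for Rarg, the others without overlap besides Lrat. It was -0.26 for Aldh1a2, -0.08 for Rara, 0.13 for Rarb and 0.08 for Cyp26b1, where the libraries overlapped.

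Single libraries stood at an extreme of their group for several members at a time. Replicate 1 of the double knockdown was the highest of its group for 5 of 8 genes, Lrat, Crabp2, Rara, Rarg and Cyp26b1. Replicate 3 of that group was the lowest for 5 of 8, Lrat, Aldh1a2, Crabp2, Rarb and Rarg. Replicate 3 of the Btg1 knockdown was the lowest of its group for Lrat, Crabp2, Rara and Rarb and the highest for the other 4. Scramble replicate 2 was likewise the highest of its group for 4 of 8 genes and the lowest for 4. In the Btg2 knockdown replicate 2 was the highest for 4 of 8, and replicate 1 the lowest for 4. The same shares over all genes were not determined.

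Across the 12 libraries, which share their groups, Pearson's correlation of log2 CPM was 0.85 between Lrat and Crabp2 and 0.79 between Crabp2 and Rarg. It was -0.02 between Lrat and Rarb, and 0.69 between Rdh10 and Aldh1a2. These values describe 12 libraries in 4 groups and carry no test.

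Among 9603 genes averaging at least 5 CPM, those whose levels ran most like Lrat over the 12 libraries included Fhdc1 (r = 0.98) and Epha3 (r = 0.98). Fhdc1, a formin-type regulator of the cytoskeleton, averaged 21.3 CPM in scramble, 11.9 with siBtg1, 35.5 with siBtg2, and 17.7 with both siRNAs. Epha3, an ephrin receptor, averaged 74.1, 52.0, 99.8 and 63.8 CPM in the same order. Both share with Lrat the order of the group means, Btg2 knockdown, scramble, double knockdown, Btg1 knockdown, with smaller ranges on the log2 scale. They were picked for likeness to Lrat over these same libraries, so a shared pattern is no separate result. The plot of Lrat, Fhdc1 and Epha3 by library shows that replicate 3 of the Btg1 knockdown is the lowest library for all 3 genes.

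**Figure D4:**
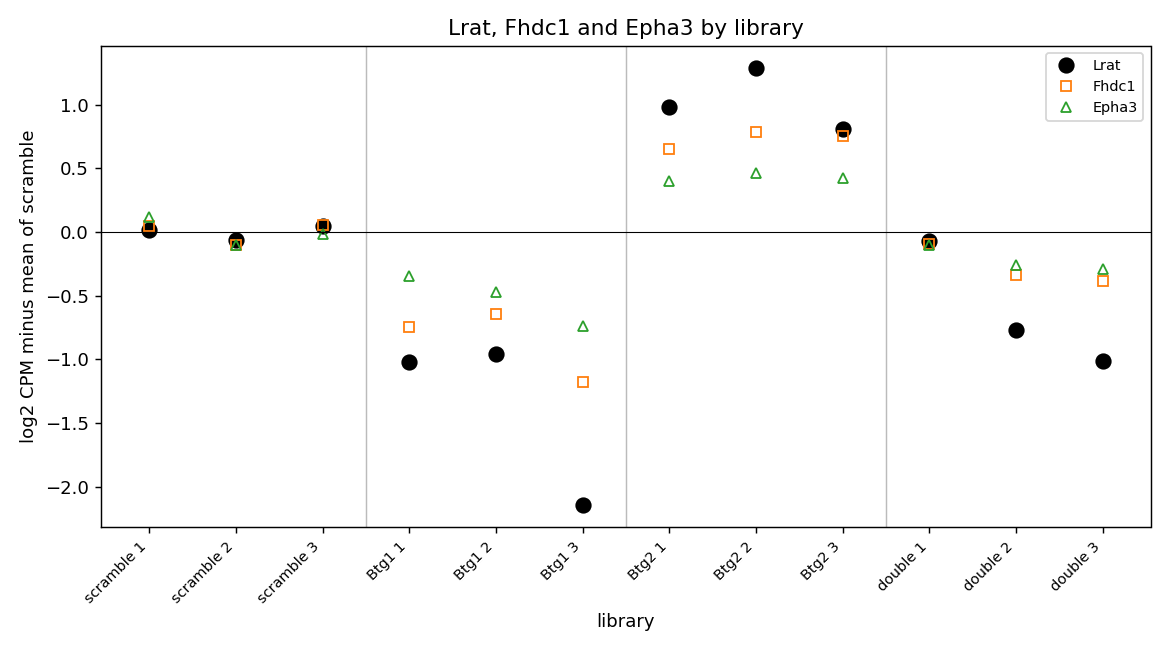
Log2 CPM minus the scramble mean in each of the 12 libraries for Lrat, and for Fhdc1 and Epha3, picked for likeness to Lrat over these libraries. All 3 lie above 0 in the Btg2 knockdown and below 0 in the Btg1 and double knockdowns, Lrat farthest in most of those libraries.

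By the same measure the likest genes of Rdh10 were Ell, Pdgfrb and Igf2bp2 (r = 0.92 to 0.90), and those of Aldh1a2 were Pak1, Col5a2 and Col3a1 (r = 0.89 to 0.86). Pdgfrb is on the smooth muscle and pericyte marker list and Col3a1 on the fibroblast list. Col3a1 averaged 3491 CPM in scramble, 3022 with siBtg1, 3359 with siBtg2, and 2920 with both siRNAs. For Crabp2 they were Hsd3b7, Mfsd11 and Prpf18 (r = 0.95), for Rara Cmbl, Fam3a and Ip6k2 (r = 0.93 to 0.90), and for Rarb Olfml1, Arl3 and Gpx8 (r = 0.97 to 0.94). For Rarg they were Adamts15, Psmg1 and Os9 (r = 0.95 to 0.94), and for Cyp26b1 Ccn3, Tns3 and Sh3bp2 (r = 0.87 to 0.83).

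The wider retinoid pathway was covered by 7 lists with 112 genes other than the members, of which 95 had a row in the table and 72 passed the filter. In the double knockdown 27 of 72 passed the test, 10 higher and 17 lower, which is 37.5% beside 38.9% of all genes. In the Btg1 knockdown 28 passed, 8 higher and 20 lower (38.9% beside 36.5%), and in the Btg2 knockdown 25 passed, 12 higher and 13 lower (34.7% beside 30.0%). Median changes of the 72 were -0.05, -0.06 and 0.02, and calls in either direction were about as frequent as among all genes. Lower calls made up 20 of 28 in the Btg1 knockdown, beside 2229 of 4571 among all genes. In the double knockdown they made up 17 of 27, beside 2444 of 4873. In the Btg2 knockdown they made up 13 of 25, beside 1709 of 3760. The lean to lower calls was largest in the Btg1 knockdown and was not tested.

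Of 8 tested retinoid uptake and carrier genes, 3 fell and none rose in each comparison with scramble. That is 37.5%, beside 38.9% of all genes called in the double, 36.5% in the Btg1 and 30.0% in the Btg2 knockdown. All 3 of these calls were lower, and 19.5%, 17.8% and 13.6% of all genes were called lower in the same order. The shares called in either direction and called lower apply to the other roles too. Cd36, a lipid uptake receptor, fell by 0.45 in the double knockdown (edgeR adjusted p = 1.6e-08), from 261 ± 5.43 to 191 ± 10.5 CPM. Stra6, the cell surface receptor for circulating retinol, did not pass the filter, with at most 8 counts in a Btg1 knockdown library and 0 in the scramble libraries.

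Of 11 tested genes of retinyl ester turnover, 2 rose and 4 fell in the double knockdown, 2 rose and 4 fell in the Btg1 knockdown, and 1 rose and 2 fell in the Btg2 knockdown (54.5%, 54.5% and 27.3%). Pnpla3, a lipase active on retinyl esters, averaged 10.5 ± 1.25 CPM in scramble, 5.39 ± 0.585 with siBtg1, 7.82 ± 0.921 with siBtg2, and 5.49 ± 0.723 with both siRNAs. It fell by 0.97 in the Btg1 knockdown (edgeR adjusted p = 1.4e-06) and by 0.94 with both siRNAs (adjusted p = 2.0e-06). Lpl, lipoprotein lipase, fell by 0.39 in the Btg1 knockdown (adjusted p = 4.7e-07), from 267 ± 10.3 to 204 ± 11.1 CPM, and by 0.25 with both siRNAs (adjusted p = 1.0e-04). In the Btg2 knockdown it rose by 0.12, to 291 ± 6.37 CPM (adjusted p = 0.046).

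Of 16 tested oxidoreductases of retinol and retinal, 3 rose and 4 fell in the double knockdown, 1 rose and 5 fell in the Btg1 knockdown, and 1 rose and 1 fell in the Btg2 knockdown (43.8%, 37.5% and 12.5%). Dhrs7, a short-chain dehydrogenase, averaged 47.0 ± 1.30 CPM in scramble, 29.3 ± 1.22 with siBtg1, 47.8 ± 1.12 with siBtg2, and 28.8 ± 1.09 with both siRNAs. Its change was -0.68 ± 0.05 in the Btg1 knockdown (edgeR adjusted p = 7.8e-10) and -0.71 ± 0.05 with both siRNAs (adjusted p = 3.1e-10). Rdh13, a mitochondrial member of the retinol dehydrogenase family, fell by 0.76 in the Btg1 knockdown (adjusted p = 4.9e-08), from 22.6 ± 1.57 to 13.3 ± 0.448 CPM. Among 5 tested retinal oxidases and retinoic acid binding proteins, Fabp5 passed in each comparison with scramble and the others in none of these. Fabp5, which delivers retinoic acid to the receptor PPARD, averaged 108 ± 4.03 CPM in scramble and 78.6 ± 5.05 in the double knockdown, a change of -0.46 ± 0.05 (adjusted p = 2.6e-07). Of the 2 tested genes of retinoic acid clearance besides Cyp26b1, Cyp26a1 and Cyp2s1, neither passed against scramble, and Cyp26a1 had at most 21 counts in any library.

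The list of retinoid X receptors and coregulators had calls in both directions. Of 13 tested, 4 rose and 3 fell in the double knockdown (53.8%). In the Btg1 knockdown 2 rose and 4 fell (46.2%), and in the Btg2 knockdown 5 rose and 4 fell (69.2%). Every retinoid X receptor that passed in a single knockdown fell. These were Rxra and Rxrg with siBtg1, and Rxrb and Rxrg with siBtg2. Ppard, the receptor served by Fabp5, averaged 100.4 ± 1.62 CPM in scramble, 90.7 ± 1.79 with siBtg1, 65.9 ± 2.35 with siBtg2, and 79.5 ± 4.73 with both siRNAs. Its change in the Btg2 knockdown was -0.61 ± 0.05 (edgeR adjusted p = 1.9e-09). Ncoa2, a coactivator of nuclear receptors, rose by 0.50 in the Btg2 knockdown (adjusted p = 1.2e-06), and Nsd1, a histone methyltransferase that interacts with nuclear receptors, rose by 0.43 (adjusted p = 1.1e-06). With both siRNAs the difference from scramble was 0.10 for Ncoa2 (adjusted p = 0.19) and 0.17 for Nsd1 (adjusted p = 0.0079).

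Of 17 tested genes known to respond to retinoic acid in some tissue, 1 rose and 2 fell in the double knockdown, 3 rose and 3 fell in the Btg1 knockdown, and 5 rose and 2 fell in the Btg2 knockdown (17.6%, 35.3% and 41.2%). Tgm2, transglutaminase 2, averaged 262 ± 7.11 CPM in scramble, 346 ± 13.6 with siBtg1, 354 ± 10.4 with siBtg2, and 381 ± 11.7 with both siRNAs. Its change was 0.40 ± 0.04 in the Btg1 knockdown (edgeR adjusted p = 3.9e-08), 0.43 ± 0.04 in the Btg2 knockdown (adjusted p = 2.7e-08), and 0.54 ± 0.04 with both siRNAs (adjusted p = 2.8e-10). Rarres2, which encodes the secreted protein chemerin, fell by 0.52 in the Btg2 knockdown (adjusted p = 3.4e-06), from 25.1 ± 1.73 to 17.4 ± 0.619 CPM. Rai14 rose there by 0.33 (adjusted p = 1.9e-05), with a difference of 0.02 with both siRNAs (adjusted p = 0.81). Egr1, an immediate early transcription factor, averaged 45.1 ± 1.51 CPM in scramble, 63.9 ± 4.28 with siBtg1, 54.7 ± 2.56 with siBtg2, and 41.4 ± 2.75 with both siRNAs. It rose by 0.50 in the Btg1 knockdown (adjusted p = 3.6e-07) and by 0.28 in the Btg2 knockdown (adjusted p = 8.9e-04), whereas its difference with both siRNAs was -0.12 ± 0.06 (adjusted p = 0.11). Its departure from added effects was -0.90 ± 0.08 (adjusted p = 1.2e-07), larger in size than that of Rara. Over the 72 pathway genes 14 departures passed, 7 in each direction, which is 19.4% beside 15.1% of all genes. These genes went both ways within each knockdown, as the plot of the other retinoid genes shows by role.

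**Figure D5:**
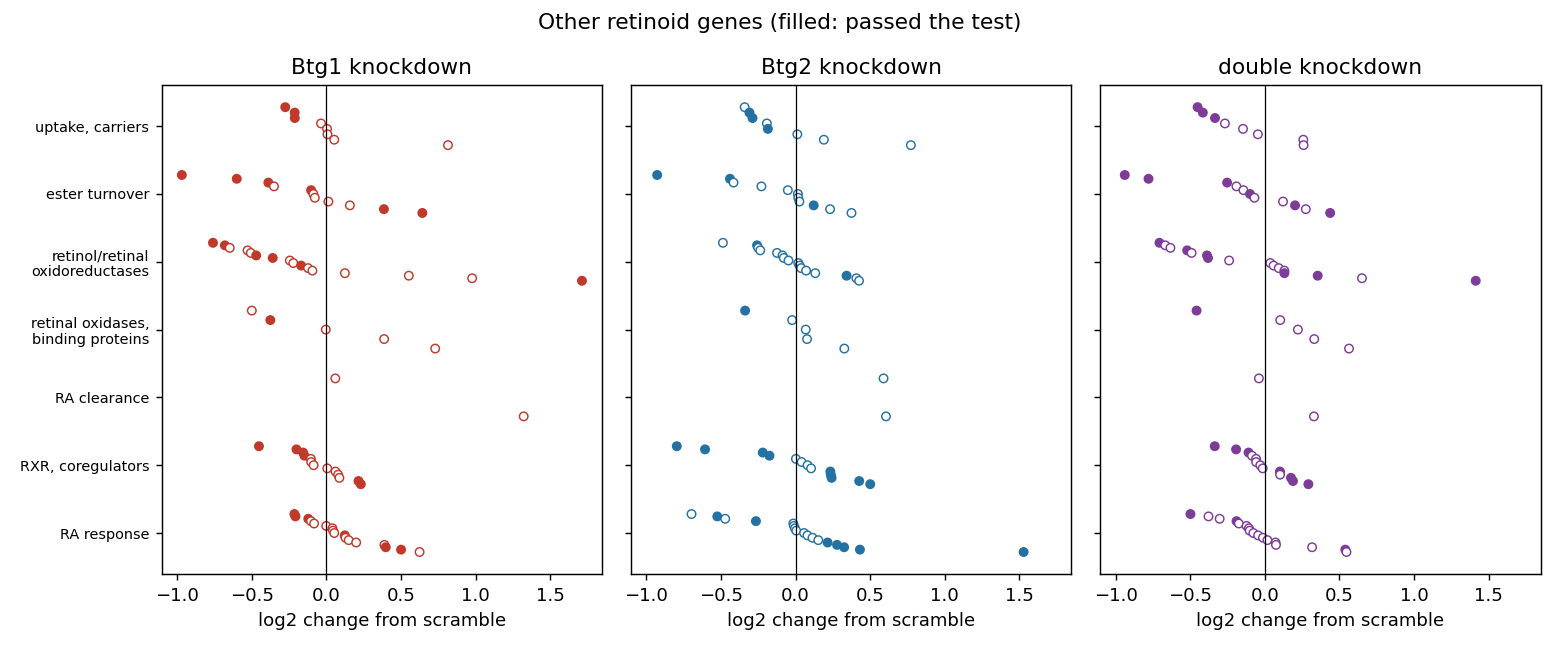
Log2 change from scramble of the 72 other retinoid genes, by role and knockdown; filled points passed the edgeR test. Uptake and carrier genes that passed lie left of 0 in each panel, and the coregulators and response genes lie on both sides.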

How the data were processed

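RNA-seq was analysed from 12 libraries, 3 in each of 4 groups taken from the sample titles and treatment labels. STAR, featureCounts, Trim Galore, cutadapt, FastQC and the rat build rn5 are listed, without role or version, in the submitters' processing notes. The annotation and the strand setting were not given in the sources used here. RNA was amplified with Ovation RNA-Seq System v2 and made into paired-end Nextera XT libraries, per the labels' protocols. The authors deposited whole-number counts per gene symbol and a table of TPM values, used here only for levels between genes and as an alternative. Amplified reads without molecular identifiers are not independent molecules, so precision from counts covers counting error only.

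All 12 libraries entered 1 edgeR 4.0.16 fit (R 4.3.3; TMM scaling, filterByExpr, robust quasi-likelihood F test, 1 mean per group, 8 residual degrees of freedom). P-values were adjusted by Benjamini-Hochberg over 12535 genes and called at 0.05; 4884 genes were filtered out. Each SE is the log2 change divided by the root of its F statistic, intervals use the moderated degrees of freedom, and CPM are TMM-scaled. Of 17419 symbols, 17074 matched RefSeq names of GRCr8. The members and lists were chosen with earlier results of these data known. The text names Btg1, Btg2, all members, pathway genes that passed (values for up to 6 per comparison with the smallest p), and the 3 genes of highest Pearson correlation of log2 CPM with each member. Some genes that this rule names are left out of the report. Stra6, Cyp26a1, Cyp2s1, Myh6 and Col1a1 were named after their values were seen. Alternatives were DESeq2 1.42.0, other scalings and filters, fits of only the compared groups or with a replicate block, limma 3.58.1 on deposited log2 TPM with 1 or 0.1 added, and fits without each library. The edgeR step was tested on simulated data.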

Additional observations from a re-analysis of the deposited data

Results flagged for a closer look

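Rara in the double knockdown departed from the added effects of the single knockdowns, by a log2 value of 0.23 ± 0.07 (edgeR adjusted p = 0.020). Btg1 and Btg2 themselves departed by -0.44 and -0.65, both lower with both siRNAs than in their own knockdown. The double knockdown also lacked siScramble, and the part of these differences in the value of Rara was not tested. Rara was higher in 3 of 3 double knockdown libraries than in every library of the other groups. The call was lost without Btg1 knockdown replicate 3 (0.21, adjusted p = 0.055), Btg2 knockdown replicate 1 (0.20, adjusted p = 0.061) or scramble replicate 1 (0.21, adjusted p = 0.066).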

How the results depend on the processing

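Over 1020 recomputed values, no called value changed direction. Counts of members or pathway genes called stayed within 1.5 times the reported count in 131 of 140 recomputations. The number called in the Btg2 knockdown against scramble was 2 with library size alone and with only the groups compared, Cyp26b1 being the addition. In the double against the Btg2 knockdown it was 1 with only the groups compared. Leaving out each library gave 3 to 5 members in the double knockdown, 3 to 4 in the Btg1 and 1 to 2 in the Btg2 knockdown against scramble. It gave 0 to 3 in the double against the Btg2 knockdown, 1 in the double against the Btg1 knockdown, and 0 to 1 for the departure from added effects. Pathway genes called ranged from 23 to 27 (double), 22 to 27 (Btg1) and 22 to 25 (Btg2). On log2(TPM + 1), which compresses low genes, Lrat was -0.74 in the Btg1 knockdown against scramble, -1.50 against the Btg2 knockdown, and -1.10 in the double against the Btg2 knockdown. On that scale Crabp2 was -0.95 between the single knockdowns. Rdh10 passed with limma on either TPM scale in the Btg1 knockdown against scramble and in the double against the Btg2 knockdown. With the replicate number as a block, 5, 3 and 1 members were called in the double, Btg1 and Btg2 knockdowns, Lrat passing in the double knockdown at -0.60 (adjusted p = 0.037); with only the groups compared it passed at -0.57 (adjusted p = 0.031). The block gave 24, 26 and 24 pathway genes. Correlations of deviations between libraries with the same number ran from -0.09 to 0.06, none of 18 above 0.1, and 3 of 12 libraries correlated best with their own number, so the numbers were not taken as pairs. Over all alternatives the adjusted p of Lrat in the double knockdown ran from 0.0044 to 0.29. The causes of these shifts were not tested. Crabp2 rested on 14 to 71 counts per library, Lrat on 40 to 408 and Cyp26b1 on 81 to 190.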
